A study of Mus musculus with 3 samples.

Results

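A set of 4 kinase inhibitors aimed at the NF-kappaB and innate immune kinases were among the compounds of a kinase inhibitor library given to mouse embryonic fibroblasts (MEF, wild type). Of these, ACHP (Hydrochloride) and BMS_345541, are described as inhibitors of the IkappaB kinases (IKK), MRT67307 of TBK1 and IKK-epsilon, and WEHI_345 of RIPK2. They were found by name among the wells of 3 plates and made up 4 of 221 compound wells. ACHP (Hydrochloride), BMS_345541 and WEHI_345 lay on plate 2 and MRT67307 on plate 3. Each well held CFAE+8 medium and 1 compound over 4 days of culture and was read by DRUG-seq2, in which the RNA of each well is barcoded and a plate is sequenced as 1 library. The labels give no concentrations, so doses could not be matched, and none of the well names marks a vehicle. Each member had 1 well, except that the barcode list gives MRT67307 to a pair of wells. The column of MRT67307 was held as identical repeats and counted once. Whether its counts are of 1 well or of both is unknown, and it is treated as 1 well below. The comparison wells were 85 other compound wells on plate 2 and 40 on plate 3, each with another compound of the library. CC_115, LEE011 and Flumatinib on plate 2 and Regorafenib on plate 3 had 2 wells each, in different forms.

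The IKK complex holds the kinases IKK-alpha (Chuk) and IKK-beta (Ikbkb) and the scaffold NEMO (Ikbkg). After signals from cytokine or pattern receptors it phosphorylates IkappaB proteins such as IkappaB-alpha (Nfkbia), which are then degraded and release NF-kappaB. TBK1 and IKK-epsilon (Ikbke) act beside it on interferon regulatory factors, and RIPK2 passes the signal of the receptors NOD1 and NOD2 on to IKK. NF-kappaB in turn drives its own inhibitors, the subunits Nfkb2 and Relb, and chemokines. MRT67307 is known to act on other kinases too, among them ULK1 and ULK2, which start autophagy, and the salt-inducible kinases.

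Promoter sequences of 3 feedback and target genes are shown because their transcription is the usual readout of this pathway. They are the 250 bases before the RefSeq start on GRCm38.p6, 5′ to 3′, with each match to the kappaB motif, on either strand, in capitals.
Nfkbia, chr12:55492648-55492897, minus strand: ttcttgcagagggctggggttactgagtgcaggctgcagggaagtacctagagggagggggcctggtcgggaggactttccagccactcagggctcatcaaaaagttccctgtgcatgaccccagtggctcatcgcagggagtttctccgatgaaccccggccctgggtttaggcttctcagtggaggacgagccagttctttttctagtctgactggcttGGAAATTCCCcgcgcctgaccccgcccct
Nfkb2, chr19:46304487-46304736, plus strand: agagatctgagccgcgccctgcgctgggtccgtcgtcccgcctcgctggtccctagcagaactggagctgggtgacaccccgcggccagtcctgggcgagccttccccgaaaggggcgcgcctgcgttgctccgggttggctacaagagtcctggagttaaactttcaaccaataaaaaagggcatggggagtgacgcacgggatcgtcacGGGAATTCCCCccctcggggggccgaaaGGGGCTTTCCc
Cxcl1, chr5:90890995-90891244, plus strand: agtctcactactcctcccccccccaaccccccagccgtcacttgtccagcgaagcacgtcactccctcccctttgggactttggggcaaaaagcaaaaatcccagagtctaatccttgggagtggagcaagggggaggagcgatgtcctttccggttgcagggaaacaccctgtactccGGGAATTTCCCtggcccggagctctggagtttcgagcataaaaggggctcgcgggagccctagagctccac
Overlapping matches run together in the capitals, which happened in Nfkb2 and in Cxcl1. A total of 17 genes were looked up, namely the pathway and target genes reported in every well and 2 chemokine and cytokine genes described at the end. Of these, 11 had a window, and 4 (Nfkbia, Tnfaip3, Nfkb2 and Cxcl1) held a match in at least 1 window. The 3 sequences shown come from these 4 genes, while Icam1 and Birc3 held no match. Among all 32851 single windows of this length, 3.90% held one. Some genes, such as Nfkb2, had more than 1 window, so the gene count and this share have different units. A match describes letters and not a site in use.

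Against the other compound wells of their plates, no gene of any member passed the test, although single genes lay outside all reference wells. With edgeR's quasi-likelihood test and Benjamini-Hochberg adjustment, 0 of 8272 genes were called for ACHP (0%), 0 of 8272 for BMS_345541 (0%), 0 of 8272 for WEHI_345 (0%) and 0 of 7143 for MRT67307 (0%). DESeq2 gave 0 for each as well. At an unadjusted p under 0.05 there were 263 genes for ACHP (3.18%), 213 for BMS_345541 (2.57%), 198 for WEHI_345 (2.39%) and 277 for MRT67307 (3.88%). The smallest adjusted p, 0.231, was that of MRT67307 for Man2a2, at 2.84 CPM against 10.5 to 51.4 in the reference wells, and Lpar1, at 246 against 49.5 to 208. CPM are a gene's counts scaled to a fixed total per well. The same test called at least 1 gene for 21 of 83 compounds on plate 2, with up to 2579 genes, and for 7 of 40 on plate 3, with up to 1500. Since each reference well held another compound of the library, a response shared with many of them would not appear. A call would have meant that 1 well lay outside their spread.

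**Figure D1:**
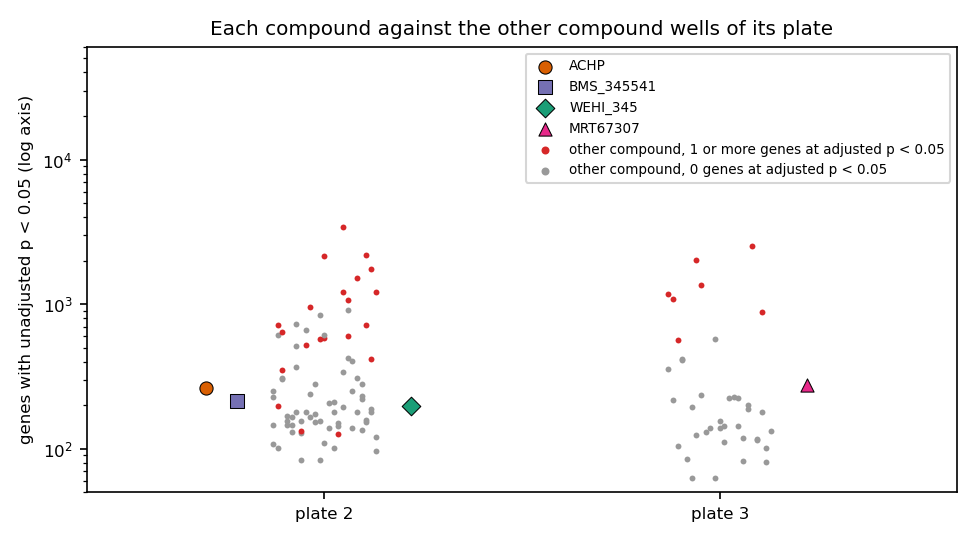
Number of genes with an unadjusted p under 0.05 (log axis) for each compound of plates 2 and 3 against the other compound wells of its plate; red points are compounds with at least 1 gene at an adjusted p under 0.05. The 4 members, at 198 to 277 genes, lie among the compounds with no called gene.

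The 4 wells differed in depth. ACHP had 385513 counts (63.3% of the median of its plate), BMS_345541 had 468018, WEHI_345 had 936026 and MRT67307 had 703918, the highest total of 41 wells. Whether the MRT67307 total is of 1 well or of both listed wells is unknown. The median standard error of a log2 fold change was 0.49 for ACHP, 0.46 for BMS_345541, 0.41 for MRT67307 and 0.40 for WEHI_345. For genes under 30 CPM, the median was 0.70 in ACHP. All 30 fibroblast markers had counts in all 4 wells. The epithelial genes Epcam and Cdh1, the leukocyte gene Ptprc and the endothelial gene Pecam1 were at 0 in each. Other markers did have counts. The endothelial genes Esam and Egfl7 were at 20 CPM or more in all 4 wells, as was the epithelial gene Krt18 in BMS_345541. The macrophage gene Cd68 reached 20 CPM in ACHP, WEHI_345 and MRT67307, and Lyz2 did so in WEHI_345 and MRT67307. The neural genes Nes, Nefl, Nefm, Gap43, Syn1 and Stmn2 and the skeletal muscle gene Acta1 also reached 20 CPM in all 4. The neural list summed to 553 CPM in ACHP, 570 in BMS_345541, 398 in WEHI_345 and 609 in MRT67307. Of 14 macrophage markers, 3 to 8 were at 0 in a member well, and the list summed to 67.4 CPM in ACHP, 66.2 in BMS_345541, 87.6 in WEHI_345 and 116 in MRT67307, inside the reference ranges of 10.8 to 761 CPM on plate 2 and 22.5 to 381 on plate 3.

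The genes of the targeted kinases were expressed at low levels. Ikbkb (chromosome 8, 22659212 to 22706589 on mm10) was at 20.8 CPM in ACHP, 23.5 in BMS_345541, 18.2 in WEHI_345 and 21.3 in MRT67307, against reference medians of 18.8 to 20.6 CPM. All 4 values lie well inside the reference range, and the log2 fold changes were between -0.18 and 0.19. Ikbkg was at 28.5, 21.4, 22.4 and 35.5 CPM in the same order, also within its range. Chuk had 0 to 3 counts and Ripk2 0 to 6 counts per member well, under the level tested. For RIPK2, the target of WEHI_345, this left 2 counts in the WEHI_345 well (2.14 CPM), and its receptors were as low, with Nod1 at 1 count there.

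Tbk1 (chromosome 10, 121546455 to 121586787) encodes the kinase that MRT67307 is aimed at. It was at 25.9 CPM in ACHP, 10.7 in BMS_345541, 8.55 in WEHI_345 and 12.8 in MRT67307. The ACHP value was the highest of the 86 wells of plate 2, where the median was 8.79 CPM, but it rested on 10 counts (95% Poisson interval 12.4 to 47.7 CPM, counting error only). Its log2 fold change of 1.49 ± 0.55 (SE) was not called (edgeR adjusted p = 0.99999). Ikbke was at 45.5 CPM in MRT67307, the third highest of 41 wells, and at 13.9 CPM in WEHI_345, the ninth lowest of 86, with log2 fold changes of 0.70 ± 0.45 and -0.84 ± 0.48, neither of them called.

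The feedback inhibitor Nfkbia (chromosome 12, 55489410 to 55492647) was at 23.3 CPM in ACHP, 40.6 in BMS_345541, 45.9 in WEHI_345 and 78.1 in MRT67307. The ACHP well was the 12th lowest of 86, the others lay above their reference medians of 35.5 and 61.9 CPM, and all were inside the reference ranges. For ACHP the log2 fold change was -0.81 ± 0.80, with a 95% interval of -2.37 to 0.76, so a clear fall and a rise were both within it. For BMS_345541 it was -0.01 (interval -1.31 to 1.28), for WEHI_345 0.17 (-0.91 to 1.25) and for MRT67307 0.10 (-0.95 to 1.14). Nfkb2, which encodes the p100 precursor, was at 54.5 CPM in ACHP, 53.4 in BMS_345541 and 60.9 in WEHI_345. The medians were close, at 55.1, 55.1 and 54.6. In MRT67307, Nfkb2 was at 63.9 CPM against a median of 47.2, rank 31 from the lowest of 41 wells. Its log2 fold change there was 0.17 ± 0.60 and was not called. Relb, the usual partner of Nfkb2, was at 41.5, 34.2, 27.8 and 48.3 CPM in ACHP, BMS_345541, WEHI_345 and MRT67307. The largest log2 fold change of Relb was 0.59 ± 0.48 in ACHP.

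The adhesion molecule gene Icam1 was at 33.7 CPM in ACHP, 23.5 in BMS_345541, 13.9 in WEHI_345 and 15.6 in MRT67307. The last 2 were the 12th lowest of 86 and the 7th lowest of 41 wells, with log2 fold changes of -0.95 ± 0.63 and -0.79 ± 0.55 that were not called. The monocyte chemokine gene Ccl2 was at 5.19, 15.0, 8.55 and 39.8 CPM in ACHP, BMS_345541, WEHI_345 and MRT67307, and the reference wells spanned 0 to 67.4 CPM on plate 2 and 0 to 86.7 on plate 3. Ccl7, its neighbour, was the most abundant of these chemokines, at 114 CPM in ACHP, 124 in BMS_345541, 250 in WEHI_345 and 395 in MRT67307. The ACHP well was the 9th lowest of 86 and the MRT67307 well the 3rd highest of 41, with log2 fold changes of -0.61 ± 0.61 and 1.16 ± 0.46, neither of them called. Several usual NF-kappaB targets could not be read. Tnfaip3, which encodes the inhibitor A20, and the neutrophil chemokine gene Cxcl1 had 0 counts in all 4 members and a median of 0 CPM in the reference wells, as did the cytokine gene Il6. A count of 0 allows up to 7.78 CPM in ACHP, 6.41 in BMS_345541, 4.26 in MRT67307 and 3.21 in WEHI_345 (3 counts over the total). Birc3 had 0 to 5 counts and Cxcl5 1 to 4.

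**Figure D2:**
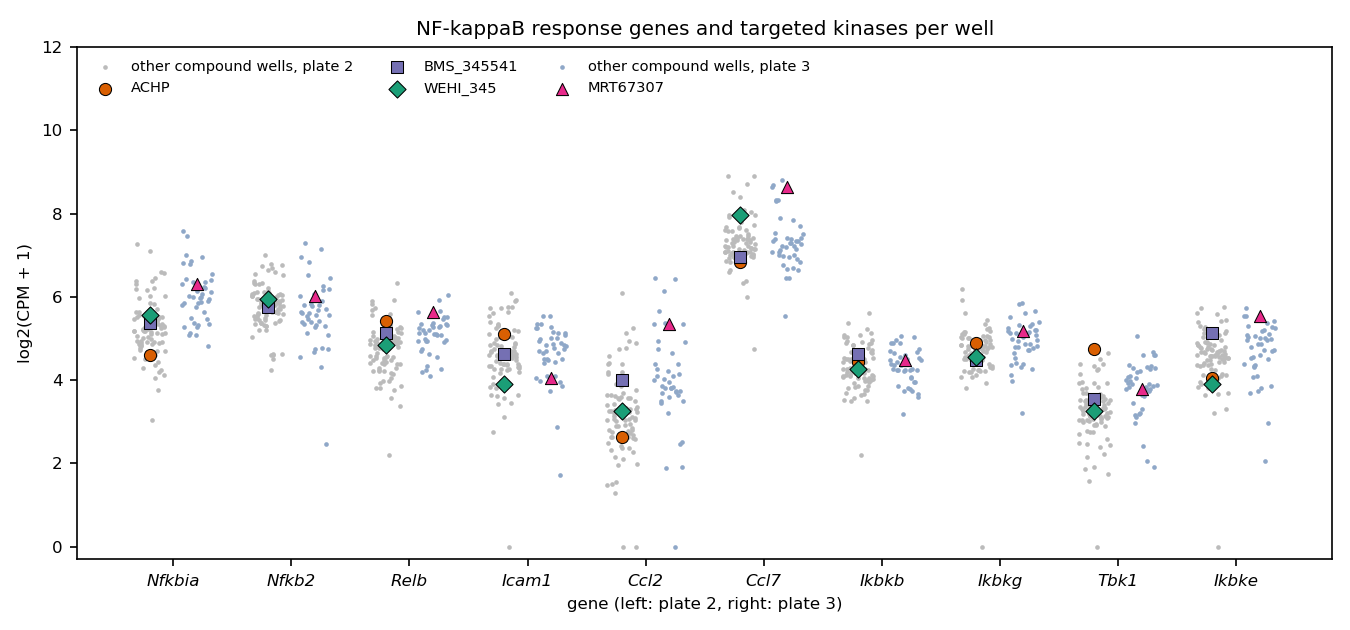
Level of 10 genes, as log2(CPM + 1), in each compound well of plates 2 (left of each gene) and 3 (right), with the 4 members as large symbols. The members lie inside the spread of the other wells, except Tbk1 in ACHP, at 25.9 CPM, and the Ccl7 value of MRT67307, at 395 CPM, is near the top of plate 3.

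Of 75 listed NF-kappaB response genes, 35 passed the filter on plate 2 and 34 on plate 3, and 0 were called in any member, as for all genes. The level of the list, the mean log2(CPM + 1) minus the reference median, was -0.01 in ACHP, 0.10 in BMS_345541 and 0.11 in WEHI_345, ranks 41, 55 and 58 from the lowest of 86, and 0.34 in MRT67307, rank 34 of 41. The spread of the reference wells was 0.28 (SD) on plate 2 and 0.30 on plate 3. In MRT67307, 4 of the 34 genes had an unadjusted p under 0.05 and a higher value (Ccl7, Il1rn, Ier3 and Tapbp), and 1 a lower one, the chemokine gene Ccl5, with 0 counts against a median of 12.5 CPM. Over all 7143 genes, 277 (3.88%) were under that threshold in MRT67307, 109 higher and 168 lower. In ACHP and BMS_345541 there were 0 and in WEHI_345 1, the stromelysin gene Mmp3, at 89.7 CPM against a median of 229. The 34 pathway components tested on plate 2 and 30 on plate 3 held 0 called genes, with levels of 0.06, 0.02, 0.02 and 0.19 in ACHP, BMS_345541, WEHI_345 and MRT67307. Rela, the main activating subunit, was at 218, 175, 221 and 159 CPM. Of the interferon response, 13 genes were tested on plate 2 and 11 on plate 3, with 0 called. Ifit1 had 0 counts in ACHP, BMS_345541 and MRT67307 and 2 in WEHI_345, and the median of the reference wells was 0.

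Outside the pathway, the levels of the lists described here lay inside the range of the reference wells, with 0 genes called. MRT67307 had a G2/M phase level 0.83 below its reference median (SD 0.53), the 4th lowest of 41 wells, and an S phase level 0.35 below it, the 5th lowest, with 0 of 19 and 0 of 21 genes called. The mitotic kinase gene Plk1 was at 35.5 CPM there against a median of 109, and the cyclin gene Ccnb1 at 14.2 against 46.4. Its autophagy and lysosome genes lay 0.40 above the median (SD 0.22), the 5th highest, with the LC3 gene Map1lc3b at 399 CPM against 264 and the phosphoinositide reader Wipi1 at 102 against 60.9, and 0 of 38 called. The inhibitors of cell death lay 0.28 above it (SD 0.20), the 2nd highest, with 0 of 15 called. Its SIK and CREB targets lay at -0.02, with 0 of 16 called. WEHI_345 had a fibroblast level 0.60 below its median (SD 0.35), the 6th lowest of 86 wells, and smooth muscle and TGF-beta response levels 0.46 and 0.27 below it, the 10th lowest for each. Its amino acid response and ATF4 targets lay 0.24 above the median (SD 0.18), the 6th highest. The matrix proteoglycan gene Lum was at 3.21 CPM in WEHI_345 (3 counts) against a median of 42.9, Bgn at 139 against 332, Dcn at 22.4 against 49.2 and the activin antagonist Fst at 6.41 against 26.4, the lowest of the plate. In bulk wells, fewer cells of a type and less RNA per cell cannot be told apart. ACHP had ERK targets 0.44 above its median (SD 0.43), the 4th highest, and an unfolded protein response level 0.18 below it, the 6th lowest. BMS_345541 had a TGF-beta response level 0.29 above its median (SD 0.23), the 11th highest. Its heat shock and protein folding level was 0.17 below the median (SD 0.23), the 13th lowest. These ranks were picked out of 30 lists after their values were seen, and no test was made of them.

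**Figure D3:**
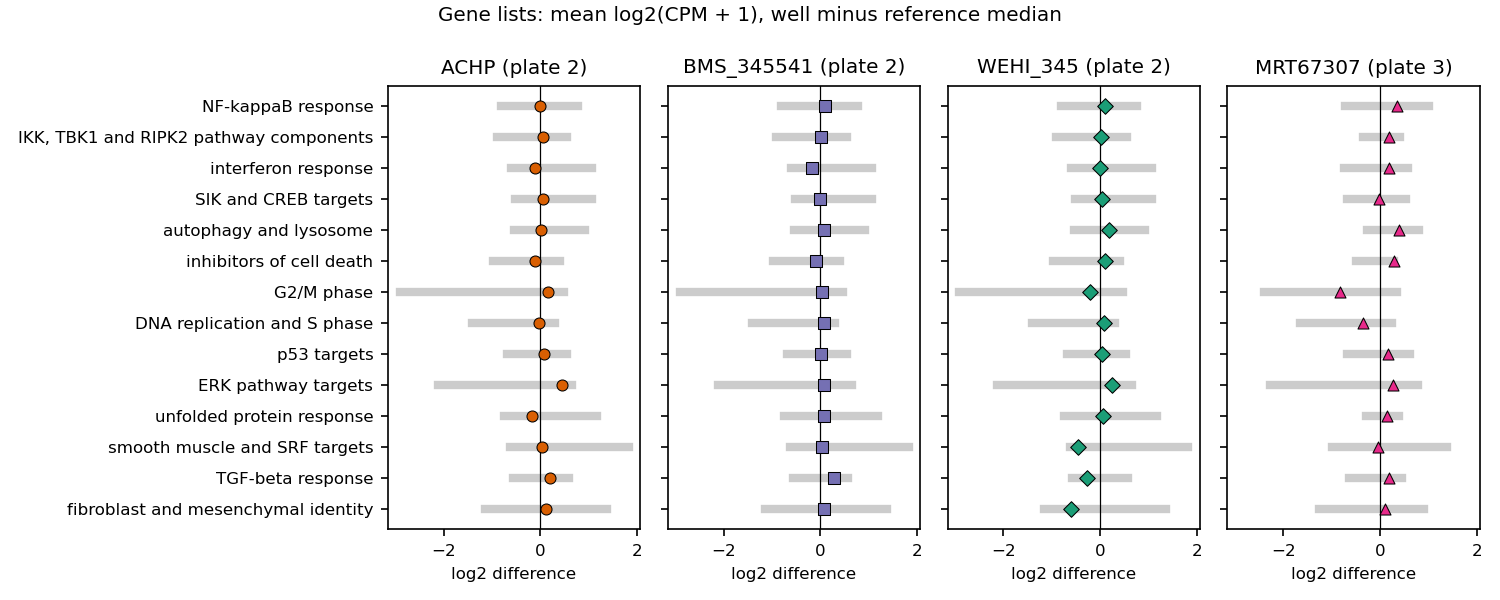
Difference of the mean log2(CPM + 1) of 14 gene lists between each member well and the median of its reference wells (symbols), with the lowest to highest reference well as grey bars. The G2/M list of MRT67307, at -0.83, is inside a grey bar that reaches far lower, and the fibroblast list of WEHI_345, at -0.60, lies toward the low end of its bar.

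The 4 compounds were compared in pairs in 1 fit over both plates, with the plate as a term. In none of the 6 pairs was a gene called (0 of 50580 tests over 8430 genes, 0%; edgeR adjusted over all genes and pairs), and the unadjusted counts were 177 to 393. The intervals were wide, so this does not show that the compounds act alike. For ACHP and BMS_345541, both aimed at IKK, the difference in Nfkbia was -0.79 (95% interval -2.85 to 1.27), in Nfkb2 0.03 (-1.53 to 1.6), in Relb 0.28 (-1.01 to 1.58) and in Ccl2 -1.48 (-5.02 to 2.06). Between ACHP and WEHI_345 it was -0.97 in Nfkbia (-2.89 to 0.95) and 1.26 in Icam1 (-0.44 to 2.97). Among 9 pathway and target genes, each compared in all 6 pairs, 3 of the unadjusted 95% intervals left out 0. Ikbke differed by 1.55 (0.27 to 2.83) between MRT67307 and WEHI_345. Tbk1 differed by 1.71 (0.20 to 3.23) between ACHP and MRT67307 and by 1.58 (0.06 to 3.09) between ACHP and WEHI_345. Each had adjusted p = 1 in edgeR's test. Both Tbk1 intervals rest on the same 10 counts in ACHP, and some 95% intervals leave out 0 by chance. The median half-width of the interval over NF-kappaB genes with counts in both wells was 1.35 to 1.58. The labels do not give the structures of the 4 compounds, and none is compared here.

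**Figure D4:**
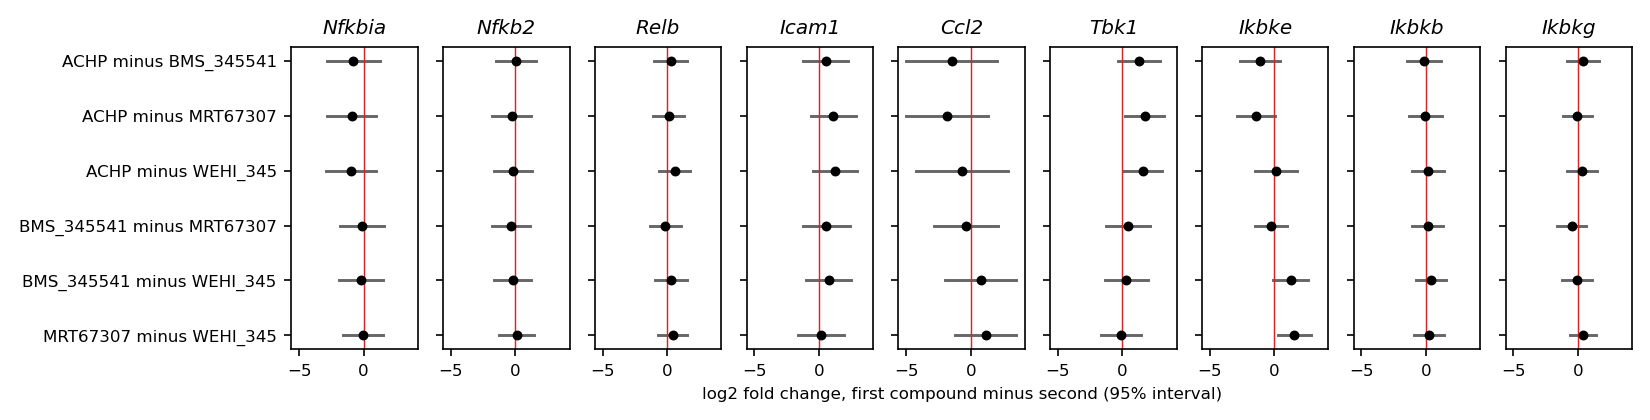
Log2 fold change between the members of each pair (points) with 95% intervals (lines) for 9 genes, each compound measured against its own plate. Nearly all intervals cross 0, and that of Ccl2 for ACHP against BMS_345541 runs from -5.02 to 2.06.

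ACHP and BMS_345541 were also given 1 shared coefficient against the other wells of plate 2. They are different compounds at unknown doses and not replicates of 1 condition. In this fit 0 of 8272 genes were called (0%) and 301 had an unadjusted p under 0.05. Nfkbia stood at -0.34 (interval -1.33 to 0.65), Nfkb2 at -0.12 (-0.80 to 0.56) and Icam1 at 0.08 (-0.85 to 1.01). Tbk1 stood at 0.96 (0.12 to 1.81, edgeR adjusted p = 0.99983). Its log2 fold change was 1.49 with ACHP alone and 0.23 with BMS_345541 alone. Another pair of compounds described as IKK inhibitors, MLN120B and LY2409881, lay on the same plate, and GSK583, described as a RIPK2 inhibitor, on plate 1. The same test called 0 genes for each, with 136, 154 and 109 at an unadjusted p under 0.05. Nfkbia was at 23.4 CPM in MLN120B and 27.6 in LY2409881, below the plate 2 median of 35.6, and at 13.1 CPM (5 counts) in GSK583, the 7th lowest of 90 wells. Other target genes did not share this order. Icam1 was at 18.2 CPM in MLN120B, 30.8 in LY2409881 and 39.4 in GSK583, ranks 19 of 86, 59 of 86 and 82 of 90 from the lowest. Relb was at 16.9, 27.6 and 23.6 CPM, ranks 13, 44 and 48, and Ccl7 at 155, 131 and 102 CPM, ranks 47, 27 and 31. A fit of all 4 IKK compounds, added after these values were seen, put Nfkbia at -0.51 (interval -1.19 to 0.17) and Tbk1 at 0.49 (-0.14 to 1.12), and called 0 genes. These 4 compounds are likewise not replicates of 1 condition.

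Plate 3 also held 5 wells named bC8FAE, taken from the name to be the screening medium without a compound. MRT67307 was compared with them in a step added after its comparison with the other compounds had given 0 calls, and plate 2 held no such wells for the other members. In this fit 36 of 7143 genes were called, 28 higher (0.392%) and 8 lower (0.112%), and 962 had an unadjusted p under 0.05 (7.17% higher and 6.3% lower). The fit run first, with a filter on these 6 wells only, called 21 genes, 18 higher and 3 lower. The count depended on single medium wells: 5 genes without bC8FAE 1, 14 without bC8FAE 2, 16 without bC8FAE 3, 314 without the shallow bC8FAE 4 (119295 counts against 390895 to 505914 in the other 4) and 32 without bC8FAE 5. DESeq2 called 13. Tested in the same way, 25 of the 40 compounds of plate 3 had 0 calls and the highest had 2154. MRT67307 ranked 8th, and these comparisons share the medium wells. With 1 column of counts for the compound, the spread comes from the medium wells alone.

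Of the 36 genes called, 5 held in every fit that left out 1 medium well, and Lpar1 and Plk3 are named for this, after their values were seen. The lysophosphatidic acid receptor gene Lpar1 (chromosome 4, 58435255 to 58553898) was at 246 CPM in MRT67307 and at 90.9, 78.2, 68.3, 126 and 66.5 CPM in bC8FAE 1 to 5. Its log2 fold change was 1.51 ± 0.23 (edgeR adjusted p = 0.00315), and the MRT67307 well was also the highest of all 41 compound wells. Ccl7 (chromosome 11, 82045712 to 82047525) was at 395 CPM against 174, 97.7, 139, 134 and 118, a log2 fold change of 1.48 ± 0.23 (edgeR adjusted p = 0.004). The other 3 were Tm4sf1, a membrane protein gene (1.52), the respiratory chain gene Ndufa1 (1.80) and the polo-like kinase gene Plk3 (1.37), which DESeq2 did not call (adjusted p = 0.141). In each the MRT67307 value lay above all 5 medium wells.

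Of 34 NF-kappaB response genes, 2 were called higher and 0 lower, Ccl7 and the interleukin-1 receptor antagonist gene Il1rn, which was at 79.6 CPM against 21.7 to 35.8 (log2 fold change 1.41) and lost its call without bC8FAE 1, 2 or 3. Over all 7143 genes 28 (0.392%) were called higher. At an unadjusted p under 0.05, 13 of the 34 were higher and 2 lower, beside 512 (7.17%) and 450 (6.3%) of all genes. The median difference of the list, on log2(CPM + 1), was 0.38, beside 0.09 over all 7143 genes. The level of the list, at 6.07 in MRT67307, lay inside the 5.54 to 6.08 of the 5 medium wells. No kappaB match was found in the 3 windows of Il1rn, and Ccl7 is named only. Nfkbia was at 78.1 CPM against 27.8 to 53.7, above all 5 wells, yet its log2 fold change of 0.86 was not called (adjusted p = 0.220). Relb (0.82) and Ikbke (0.84) were not called either, and neither was Icam1, at 15.6 CPM against 25.6 to 41.9 (-1.05). Of 30 pathway components, 1 was called, the TWEAK receptor gene Tnfrsf12a, at 466 CPM against 156 to 226 (1.17, lost without bC8FAE 1 or 2). The chemokine gene Ccl8, in no list, was called at 125 CPM against 4.34 to 56.3 (2.25, lost without bC8FAE 1), and the ERK feedback phosphatase gene Dusp5 at 28.4 CPM against 0 to 8.38 (3.46, lost without bC8FAE 1, 2 or 3). Of 11 interferon and 16 SIK and CREB genes, 0 were called. The macrophage list, of which 3 genes were tested and 0 called, had a level of 4.80 in MRT67307 against 3.40 to 4.62 in the medium wells. Of its 14 genes in the MRT67307 well, Cd68 and Lyz2 reached 20 CPM and only Ptprc, Itgam and Aif1 were at 0. The part of this list in these chemokine values was not tested.

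Other genes called higher were the matrix genes Dcn (1.66), 1 of 30 fibroblast genes, and Tnc (1.32), Sat1, which acetylates polyamines (1.67), the heat shock cognate Hspa8 (65.3 CPM against 15.2 to 29.6), the granzyme gene Gzme (1.89), Tiprl (2.01), Gxylt2 (1.77) and Ss18 (1.65). The remaining 11 were Stub1, a ubiquitin ligase gene, Mrps6, of the mitochondrial ribosome, Ptgr1, a prostaglandin reductase gene, Fkbp3, Itm2b, Prrc2a, Ostf1, Fam63a, Lce1g, Pef1 and Fbxl6. Their log2 fold changes ran from 1.07 in Fkbp3 to 1.52 in Fbxl6. All of these higher genes, from Dcn to Fbxl6, lost their call without bC8FAE 1. Hspa8, Gzme, Ptgr1, Ostf1 and Fam63a also lost it without bC8FAE 2, 3 or 5, and Tiprl without bC8FAE 3. Sat1, Gxylt2, Ss18, Stub1, Fkbp3, Itm2b, Prrc2a, Pef1 and Fbxl6 also lost it without bC8FAE 2 or 3. Only Dcn, Tnc, Mrps6 and Lce1g lost it in no other fit. Gzme was at 41.2 CPM in MRT67307, and other compound wells reached 373 CPM. Of 19 G2/M genes, 2 were called lower and 0 higher: Plk1, at 35.5 CPM against 93.6 to 159 (-1.72), and the centromere histone gene Cenpa, at 79.6 CPM against 157 to 239 (-1.45). Over all 7143 genes 8 (0.112%) were called lower. Plk1 lost its call without bC8FAE 1 and Cenpa without bC8FAE 1 or 2. The list's median difference was -0.53, and that of the 21 S phase genes -0.45 with 0 called. Among the called genes, the largest fall was that of the Golgi mannosidase gene Man2a2 (chromosome 7, 80349097 to 80371375), at 2.84 CPM (2 counts) against a mean of 32.2 ± 8.27 (SD, n = 5), which also had the lowest value of the 41 compound wells and lost its call without bC8FAE 1. The other genes called lower were the water channel Aqp1 (-1.54), Fam64a (-1.72), Hoxc5 (-1.54), Hnrnpa1 (-1.53), whose reads may be shared with near-identical copies, and Rabl5 (-1.53), and each lost its call in at least 3 of the 5 fits that left out a well. Of 38 autophagy and lysosome genes, 0 were called, and the level of the list was 7.36 in MRT67307 against 6.84 to 7.01 in the 5 medium wells. That of the inhibitors of cell death was 5.61 against 4.79 to 5.52, with 0 of 15 called.

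**Figure D5:**
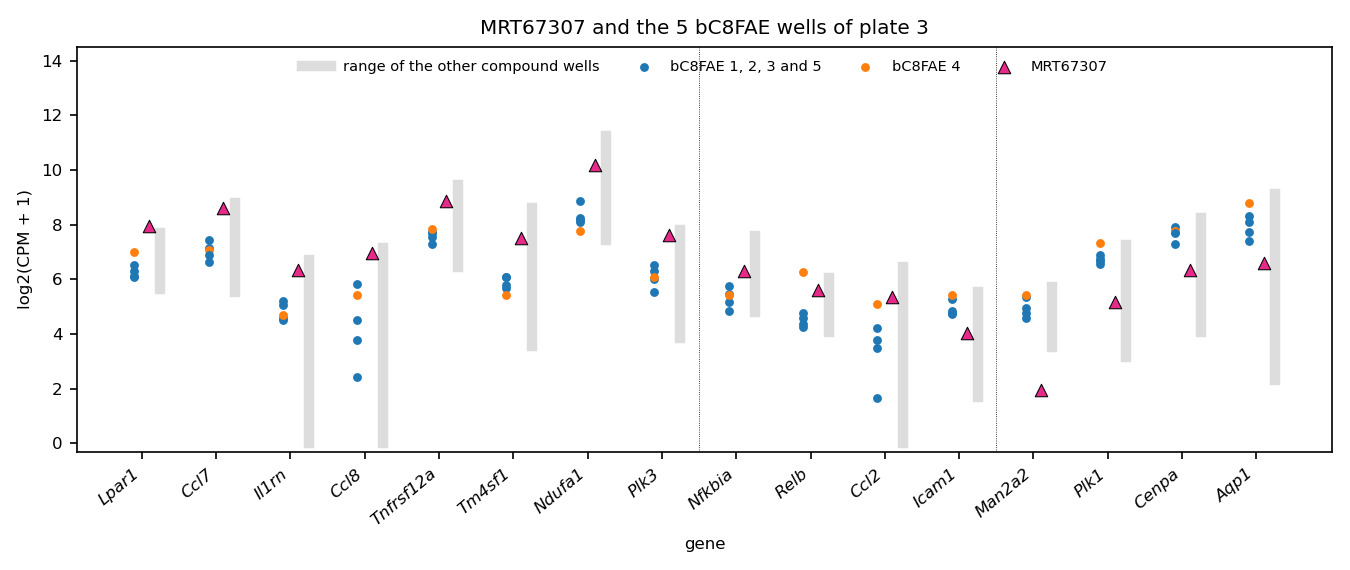
Level of 16 genes, as log2(CPM + 1), in the MRT67307 well (triangles), in the 5 bC8FAE wells (dots, the shallow bC8FAE 4 in orange) and as the range of the other compound wells of plate 3 (grey bars). The left and right groups hold genes called in this comparison and the middle group NF-kappaB genes that were not; Lpar1, at 246 CPM, lies above both sets of wells, and Man2a2, at 2.84 CPM, below both.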

How the data were processed

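The deposited table holds whole-number counts per gene and well (20471 genes, 274 columns), to which the authors applied no scaling as far as the values show. The submitters' processing notes name STAR and mm10; which counter was used, and whether strand or molecular identifiers were, is not given there. Columns were given to plates by the barcode lists. A total of 17 columns were not used: 10 listed on 2 plates, 6 in no list and 1 whose name reads as a position.

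Each member well was compared with the other compound wells of its plate that had at least 10% of the median total, with edgeR 4.0.16 (R 4.3.3): TMM scaling, genes with at least 10 counts at the median library size in at least 3 wells, and its quasi-likelihood test, adjusted by Benjamini-Hochberg, at 0.05. P-values therefore measure the spread between wells that mostly held different compounds. CPM are counts over the well's total. Intervals are the estimate ± 1.96 SE. Named genes were the called genes with the largest changes and at least 20 CPM, called list members, and a fixed set of pathway genes. For MRT67307 against bC8FAE all called genes are named. DESeq2 1.42.0 and other scalings and filters were tried. The fits of MRT67307 against bC8FAE and of 4 IKK compounds were added after the results with 0 calls were seen. The members and lists were chosen with earlier results of these data known. The scripts were tested on simulated data. Positions are from GENCODE vM21 on mm10 and promoters from RefSeq (GRCm38.p6).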

Additional observations from a re-analysis of the deposited data

Results flagged for a closer look

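Among the 5 bC8FAE wells, bC8FAE 4 lay apart from the others by Dixon's gap test in 4 of the measures looked at. It had 9429 genes detected against 10992 to 11555 in the other 4, and 1.95% of its counts were mitochondrially encoded against 0.876% to 1.06%. Hnrnpa1 was at 168 CPM there against 66.5 to 93.4, and Relb at 75.4 CPM against 17.9 to 26.1. In bC8FAE 1, the autophagy receptor gene Sqstm1 was at 265 CPM against 199.9 to 218 in the other 4. These 5 came from 55 groups looked at, and chance flags about 1 in 20 groups.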

How the results depend on the processing

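The count of 0 called genes held for all 4 members under every alternative run: DESeq2, RLE size factors, library totals, both other filters, deeper reference wells, robust fitting, for the members of plate 2 the reference without the other members, and for MRT67307 the reference with the bC8FAE wells. The 6 pairs and the shared IKK coefficient also stayed at 0. For MRT67307 against bC8FAE, 36 calls became 99 with no filter, 17 with a minimum of 30 counts, 21 with a filter on the 6 wells compared and 13 with DESeq2, and 5 to 314 when 1 bC8FAE well was left out. RLE gave 34, library totals 36 and robust fitting 40. Signs changed in genes that were not called: Ikbkb in ACHP with no filter (-0.0101), Nfkbia in BMS_345541 with library totals (0.0102) and deeper reference wells (0.016), and Relb in WEHI_345 with RLE (-0.0026) and a minimum of 30 counts (-0.003). Against bC8FAE, leaving out 1 well moved Ikbkb in MRT67307 between -0.4368 and 0.0551 (without bC8FAE 1) and Ikbkg between -0.1237 (without bC8FAE 2) and 0.2845. The cause was not tested. No paired analysis was possible because each member had 1 column of counts and the plates share no replicates. Genes under 30 CPM, including most of the targeted kinases, were measured with wide errors.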
